A study of Homo sapiens with 16 samples.

Results

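The 10 genes described here code for secreted bone morphogenetic proteins (BMP2 and BMP4), for secreted proteins that bind these ligands (NOG, GREM1 and BMPER), and for transcription factors whose genes respond to BMP signalling (ID1, ID2, ID3, ID4 and ATOH8). They were chosen by name, among 19974 protein-coding genes, and every peak in a gene's span with 10 kb on each side was read from all 12 peak files. The cells were H69, an established line of immortalised human bile duct epithelium (cholangiocytes). One group received vehicle and the other recombinant human TGF-beta at 10 ng/ml, both for 16 h, and chromatin was precipitated for SMAD3, H3K27ac or H3K9ac. Each of the 3 targets had 2 libraries per treatment, numbered 4 and 5 for SMAD3 and 1 and 2 for the marks. Nothing in the labels says that the replicates were separate cultures, so each p-value given here measures only the spread between these libraries.

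BMP ligands bind cell-surface receptors that phosphorylate SMAD1, SMAD5 and SMAD9, whereas TGF-beta receptors phosphorylate SMAD2 and SMAD3; both groups of SMADs share SMAD4. Noggin, gremlin and related secreted proteins hold BMP ligands away from their receptors, and the ID proteins, which lack a DNA-binding domain, pair with basic helix-loop-helix factors and keep them off DNA. H3K27ac and H3K9ac are acetylation marks of active promoters, and H3K27ac also of active enhancers.

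The value of a gene in a library was the length inside peaks in its window, in kb. For the tests, 500 bp was added before taking log2, genes whose mean stayed under 500 bp were left out, and each library was centred on the median over covered genes. Without centring, the median of TGF-beta libraries lay above that of vehicle libraries by 0.32 (log2) in SMAD3 and by 0.09 in H3K27ac, and the shift was -0.09 in H3K9ac. A log2 change (TGF-beta minus vehicle, ± SE) is therefore relative to that shift. Adjusted p-values are from limma with Benjamini-Hochberg adjustment over all genes tested, at a threshold of 0.05. In bulk chromatin, a region lost in some cells and a region weaker in all of them cannot be told apart.

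Peaks numbered 22451 to 34413 per SMAD3 library, 82259 to 92714 per H3K27ac library and 54682 to 61297 per H3K9ac library. The files hold no read counts, so depth is unknown. The TGF-beta replicate 2 libraries of both marks came from lane 8 and the other libraries of the marks from lane 7, so the lanes differ within the TGF-beta group; all SMAD3 libraries were on lane 8. Of 12 cholangiocyte markers, 11 had H3K27ac peaks and CFTR had none; their summed length was 109.71 and 119.45 kb with vehicle and 109.14 and 108.86 kb with TGF-beta, and among those called SCTR was higher and KRT19, CDH1 and SOX9 were lower. The hepatocyte markers ALB and TTR had no peak of any target; HNF4A rose in all 3, CYP3A4 rose in H3K27ac (1.36), and APOB fell in H3K27ac and H3K9ac (-2.38 and -1.04). SMAD3 at HNF4A covered 0 and 0 kb with vehicle and 1.45 and 1.27 kb with TGF-beta. HNF4A thus passed the minimum length in SMAD3 only through the TGF-beta libraries. Summed H3K27ac length over 7 hepatocyte markers was 13.8 and 16.1 kb with vehicle and 15.2 and 14.3 kb with TGF-beta, over 6 mesenchymal markers 16.2 and 17.0 against 19.8 and 18.2 kb (DES, DCN and COL3A1 at 0), over 5 endothelial markers 24.7 and 25.1 against 29.5 and 29.4 kb, and over 5 leukocyte markers 16.4 and 18.1 against 14.8 and 14.8 kb. Their part in the results at the BMP genes was not tested.

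In each target 9 of the 10 genes had enough peak length to be tested, and ID4 did not. In SMAD3, NOG, BMPER and ID2 rose, BMP4 fell and 5 did not pass; of all 12508 genes tested, 11.2% rose and 1.68% fell (12.8% in either direction). In H3K27ac, NOG, BMP2 and GREM1 rose, BMP4 and ATOH8 fell and 4 did not pass, where 14.8% of 13994 genes rose and 11.7% fell (26.4% in either direction). In H3K9ac, NOG rose, ATOH8, BMP4 and BMPER fell and 5 did not pass, where 4.25% of 14605 genes rose and 5.22% fell (9.47% in either direction). Within lane 7 (vehicle replicates 1 and 2 against TGF-beta replicate 1), NOG, BMP4 and ATOH8 passed in H3K27ac and NOG and ATOH8 in H3K9ac, while BMP2 and GREM1 in H3K27ac (adjusted p = 0.0503 and 0.0684) and BMP4 and BMPER in H3K9ac (adjusted p = 0.134 and 0.147) did not. The median log2 change of the 9 genes was 0.34 in SMAD3, 0.10 in H3K27ac and 0.05 in H3K9ac, against -0.03, -0.03 and 0.00 over all genes tested. Without centring, the split of calls over all genes moved from 1395 higher and 210 lower to 1825 and 11 in SMAD3, from 2067 and 1631 to 2507 and 880 in H3K27ac, and from 621 and 762 to 180 and 377 in H3K9ac.

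**Figure D1:**
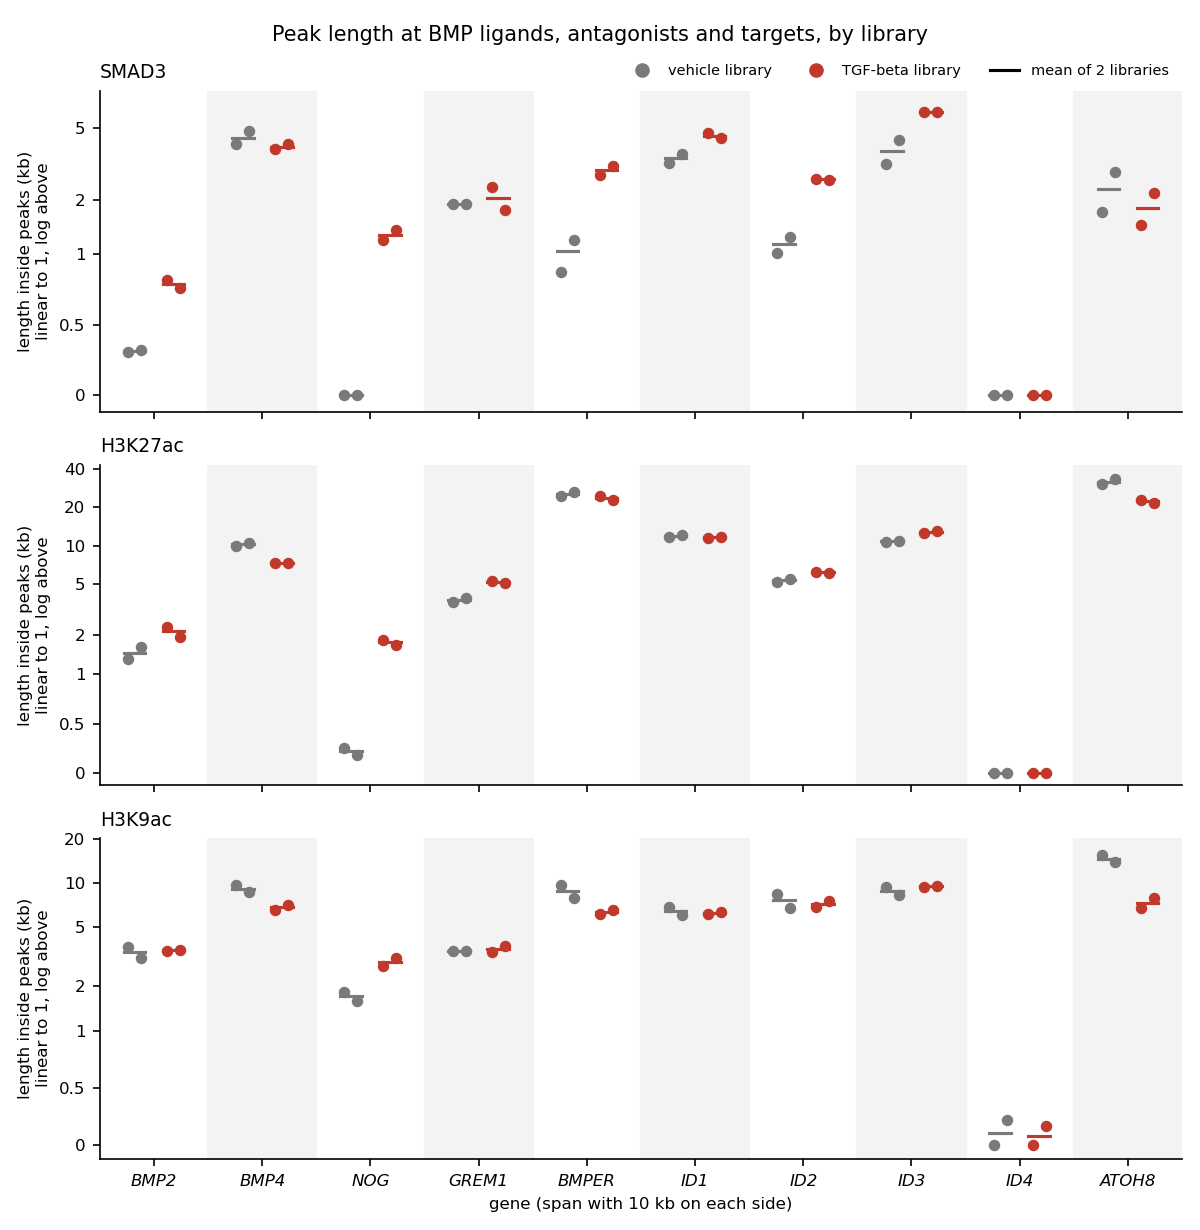
Length inside peaks (kb, linear to 1 and logarithmic above) at each gene with 10 kb on each side, in every library of SMAD3, H3K27ac and H3K9ac; points are libraries (grey vehicle, red TGF-beta) and bars are means of 2. NOG had no SMAD3 peak with vehicle and 1.20 and 1.36 kb with TGF-beta, ATOH8 was lower with TGF-beta in both marks, and ID4 was at or near 0 throughout.

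**Figure D2:**
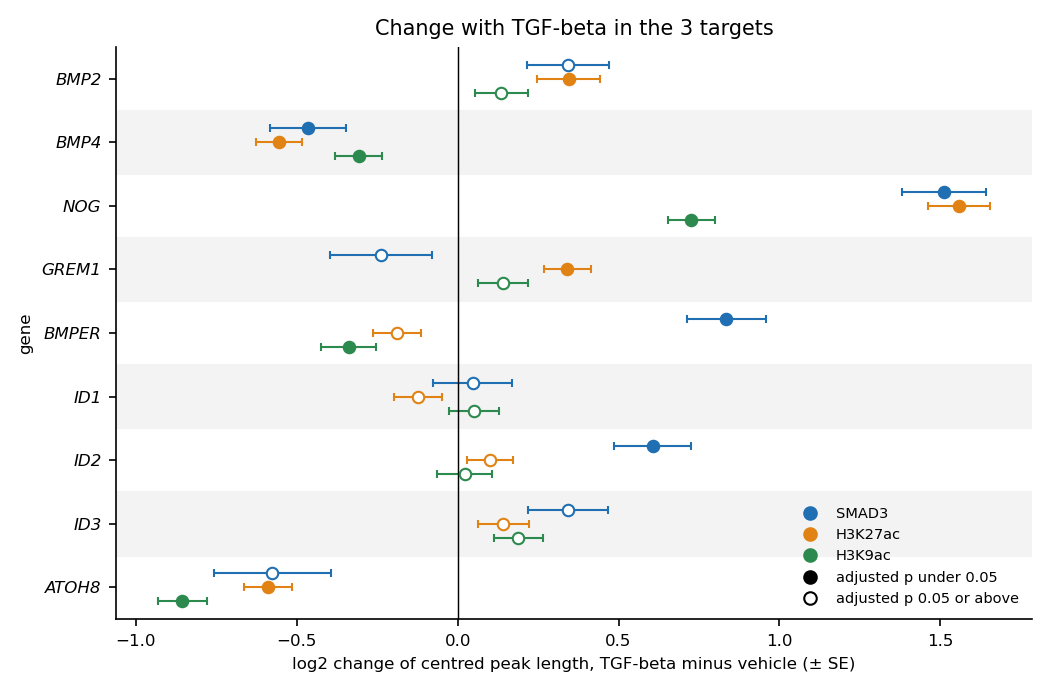
Log2 change of centred peak length (TGF-beta minus vehicle, points with SE bars) for the 9 genes tested, in SMAD3 (blue), H3K27ac (orange) and H3K9ac (green); filled points have an adjusted p under 0.05. NOG lies to the right in all 3 targets and BMP4 to the left in all 3, while BMPER lies to the right in SMAD3 (0.84) and to the left in H3K9ac (-0.34).

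Among the ligands, BMP4 fell in every target, in SMAD3 only relative to the median shift, and BMP2 rose in H3K27ac. BMP2 (chromosome 20, 6767686 to 6780246, hg38 as are all positions here) codes for a ligand known for inducing bone and for roles in many epithelia. Its SMAD3 peaks covered 0.308 and 0.322 kb in the vehicle libraries (replicates 4 and 5), against 0.818 and 0.764 kb after TGF-beta. Both TGF-beta values lay above both vehicle values, but the change of 0.34 ± 0.128 did not pass (adjusted p = 0.118, limma). BMP2 passed the minimum length in SMAD3 only through the TGF-beta libraries, and its change depends on the settings. Without centring it was 0.66 (adjusted p = 0.0287, limma). With 100 bp added before log2 it was 0.69 and with 2000 bp 0.09 (adjusted p = 0.0408 and 0.381). All of the SMAD3 length lay in a single region, from 6767285 to 6768176, which spans the lower end of the gene and was called in all 4 libraries.

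H3K27ac at BMP2 covered 1.31 and 1.63 kb with vehicle and 2.35 and 1.96 kb with TGF-beta, and the groups did not overlap. The change of 0.34 ± 0.0979 passed (adjusted p = 0.0434, limma), but not when vehicle replicate 1 or either TGF-beta library was left out, where the adjusted p lay between 0.0503 and 0.205. H3K9ac covered 3.69 and 3.09 kb against 3.46 and 3.54 kb, so that the TGF-beta libraries lay within the vehicle range (change 0.14 ± 0.0822, adjusted p = 0.383). That mark formed a single region of 3814 bp from the same end of the gene in all 4 libraries, and no peak of any target lay in the 10 kb past the other end.

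BMP4 (chromosome 14, 53949736 to 53956891, minus strand) codes for a ligand of wide use in development and fibrosis. H3K27ac covered 10.1 and 10.6 kb there with vehicle and 7.38 and 7.30 kb with TGF-beta, H3K9ac 9.62 and 8.73 kb against 6.52 and 7.15 kb. In both marks each TGF-beta library lay below each vehicle library. H3K27ac fell by 0.56 ± 0.0721 (adjusted p = 0.00225) and H3K9ac by 0.31 ± 0.0722 (adjusted p = 0.0404, limma). No H3K9ac call at BMP4 remained once any 1 of the 4 libraries was dropped (adjusted p 0.0673 to 0.165).

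Most of the length lost at BMP4 lay on both sides of the gene. Inside the gene span, H3K27ac covered 5.17 and 5.84 kb with vehicle and 5.28 and 4.97 kb with TGF-beta, and the groups overlapped, while H3K9ac covered 5.80 and 5.56 kb against 5.11 and 5.36 kb. In the 10 kb past the gene's end H3K27ac went from 3.59 and 3.07 kb to 1.37 and 1.57 kb, and in the 10 kb before the gene's start from 1.31 and 1.70 kb to 0.729 and 0.757 kb. H3K9ac past the end went from 1.99 and 1.76 kb to 0.742 and 0.858 kb in the same way. These zones were compared without a test. The 5 H3K27ac regions called in all 4 libraries include one at 9.7 kb from the start, where 2129 and 2076 bp became 778 and 1128 bp, and one at 13.6 kb, where 1461 and 996 bp became 591 and 446 bp. At the latter an H3K9ac region of 261 and 335 bp was called with vehicle and in neither TGF-beta library.

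SMAD3 at BMP4 covered 4.075 and 4.805 kb with vehicle and 3.836 and 4.077 kb with TGF-beta, so the groups overlapped. It fell by 0.47 ± 0.118 relative to the median shift (adjusted p = 0.0344, limma), and without centring by 0.15, which did not pass (adjusted p = 0.472). It did not pass without any 1 of the 4 libraries either (adjusted p 0.0697 to 0.135). Nearly all SMAD3 lay in the gene span, at 3.45 and 3.66 kb with vehicle and 3.49 and 3.50 kb with TGF-beta, in 2 regions called in every library. The peaks in these ranked high in all libraries: the strongest scored above 95.1% to 97.3% of its library's SMAD3 peaks. A neighbouring gene, LOC124903317 (53954182 to 53962356), overlaps the span of BMP4 and shares most of its window, and its changes were -0.47 in SMAD3, -0.48 in H3K27ac and -0.24 in H3K9ac (adjusted p = 0.0344, 0.00505 and 0.0897). Peaks there cannot be assigned to either gene.

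The secreted antagonists differed among themselves. NOG gained peak length in all 3 targets, GREM1 in H3K27ac, and BMPER gained SMAD3 and lost H3K9ac. NOG (chromosome 17, 56593699 to 56595611) codes for noggin, which binds BMP2 and BMP4 and blocks their receptor contacts. No SMAD3 peak was listed there in either vehicle library, against 1.20 kb in TGF-beta replicate 4 and 1.36 kb in TGF-beta replicate 5. H3K27ac covered 0.260 and 0.186 kb with vehicle and 1.85 and 1.67 kb with TGF-beta. H3K9ac covered 1.83 and 1.59 kb with vehicle and 2.74 and 3.13 kb with TGF-beta. The groups did not overlap in any target. Log2 changes were 1.51 ± 0.130 in SMAD3 (adjusted p = 0.000231), 1.56 ± 0.0969 in H3K27ac (adjusted p = 0.000169) and 0.73 ± 0.0735 in H3K9ac (adjusted p = 0.00147, limma). In SMAD3 and H3K27ac NOG passed the minimum length only through the TGF-beta libraries, and the size depends on the pseudocount: with 100 and 2000 bp it was 3.38 and 0.54 in SMAD3, 2.44 and 0.70 in H3K27ac, and 0.85 and 0.47 in H3K9ac. Without either TGF-beta library the mean fell under the minimum length and NOG was not tested in SMAD3.

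The SMAD3 and H3K27ac peaks at NOG sat at its lower end. The gained SMAD3 region (56593278 to 56594309) covered 1032 and 878 bp in the TGF-beta libraries. It lay inside an H3K27ac region (56592713 to 56594569) that was called in all 4 libraries but went from 260 and 186 bp to 1852 and 1673 bp, and inside an H3K9ac region that went from 1831 and 1591 bp to 2081 and 2271 bp. H3K9ac was thus already broad there with vehicle, when H3K27ac was short and SMAD3 was not called. A further 3 H3K9ac regions, of 152, 409 and 304 bp, were called with TGF-beta only, 1138 bp before the lower end and 1087 and 1978 bp past the upper end. The change in H3K9ac was smaller than that in H3K27ac by a log2 value of 0.83 (-0.83 ± 0.121, treatment by mark term, adjusted p = 0.00404, limma), the single such difference among the 9 genes, against 7.55% of 13600 genes tested. With a pseudocount of 2000 bp it was -0.22 and did not pass (adjusted p = 0.104).

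**Figure D3:**
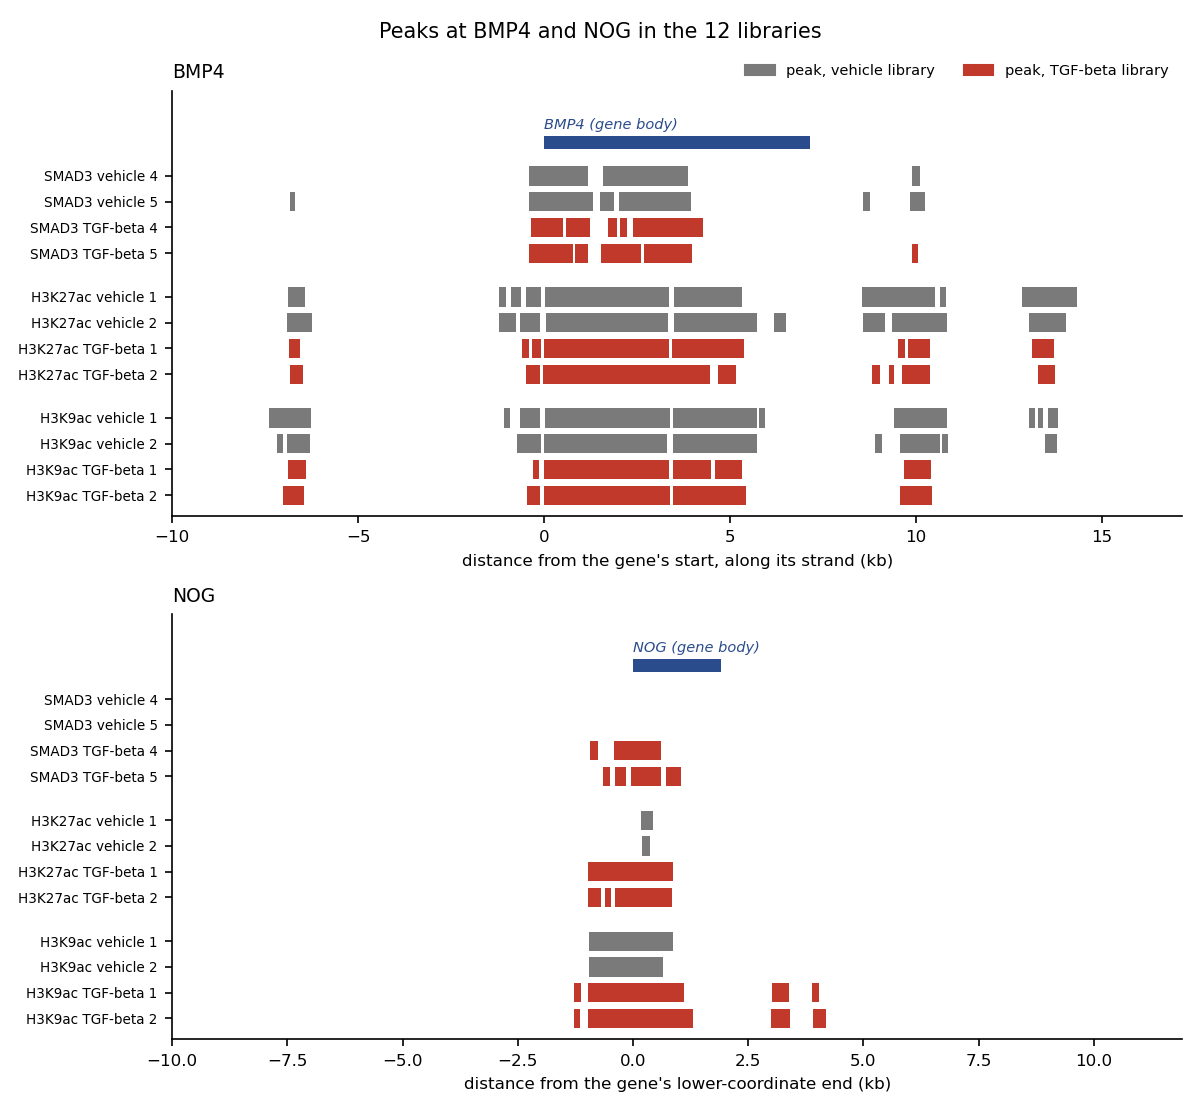
Peaks of all 12 libraries at BMP4 (distance from its start along its strand, kb) and NOG (distance from its lower-coordinate end, kb); each row is 1 library, grey for vehicle and red for TGF-beta, and the blue bar is the gene. At BMP4 the flanking peaks of both marks are shorter with TGF-beta, while H3K27ac in the gene overlaps between treatments (5.17 and 5.84 against 5.28 and 4.97 kb), and at NOG the SMAD3 rows are empty with vehicle.

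GREM1 (chromosome 15, 32718004 to 32745106, plus strand) codes for gremlin 1, an antagonist of BMP2 and BMP4 that is raised in several fibrotic tissues. SMAD3 covered 1.90 and 1.91 kb with vehicle and 2.37 and 1.76 kb with TGF-beta, and the TGF-beta libraries lay on either side of the vehicle libraries. The change of -0.24 ± 0.158 did not pass (adjusted p = 0.330, limma) and was 0.08 without centring. One region of 2219 bp at the gene's start, called in all 4 libraries, held most of this length. Its strongest peak scored above 92.3% and 92.7% of SMAD3 peaks in the vehicle libraries and above 98.9% and 98.3% in the TGF-beta libraries; the lists differ in length, so no change is read from these shares. H3K27ac covered 3.63 and 3.90 kb with vehicle and 5.36 and 5.12 kb with TGF-beta, with no overlap, and rose by 0.34 ± 0.0724 (adjusted p = 0.0154). This call was lost without TGF-beta replicate 1 or 2 (adjusted p = 0.0809 and 0.0684). Within 2 kb of the start H3K27ac hardly differed, at 2.86 and 2.93 kb against 3.09 and 2.97 kb. The added length lay inside the gene: a region at 2.9 kb from the start was called with TGF-beta only (334 and 239 bp), and one at 12.5 kb went from 151 and 315 bp to 741 and 747 bp. H3K9ac at GREM1 covered 3.43 and 3.45 kb with vehicle and 3.40 and 3.76 kb with TGF-beta (change 0.14 ± 0.0779, adjusted p = 0.340).

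BMPER (chromosome 7, 33904915 to 34156427, plus strand) codes for a secreted BMP-binding protein, also called crossveinless-2, that can hinder or help BMP signalling. SMAD3 covered 0.878 and 1.21 kb with vehicle and 2.74 and 3.10 kb with TGF-beta. Both TGF-beta values exceeded both vehicle values, and SMAD3 rose by 0.84 ± 0.123 (adjusted p = 0.00293, limma). H3K9ac covered 9.71 and 7.94 kb with vehicle and 6.19 and 6.59 kb with TGF-beta, again with no overlap, and fell by 0.34 ± 0.0846 (adjusted p = 0.0495). Dropping vehicle replicate 1 or either TGF-beta library ended that call (adjusted p 0.133 to 0.147). H3K27ac covered 24.5 and 26.6 kb with vehicle and 24.5 and 22.96 kb with TGF-beta; the groups overlapped and the change of -0.19 ± 0.0746 did not pass (adjusted p = 0.111).

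Inside BMPER, separate stretches moved in opposite directions. Of the 8 SMAD3 regions gained at the 10 genes, 5 lay between 74.8 and 82.3 kb from the gene's start, measured to their centres, with lengths of 186 to 472 bp. In the stretch around them (67.8 to 92.5 kb) SMAD3 went from 0 and 0 kb to 1.06 and 1.38 kb, H3K27ac from 6.64 and 6.67 kb to 9.48 and 8.80 kb, and H3K9ac from 2.32 and 2.28 kb to 2.67 and 2.82 kb. All 3 targets were thus longer with TGF-beta in both libraries there. In a stretch further along (152 to 167 kb) no SMAD3 peak was called in any library. H3K27ac there went from 12.9 and 13.6 kb to 10.3 and 9.76 kb and H3K9ac from 3.23 and 2.26 kb to 0.513 and 0.624 kb. That stretch held the 5 H3K9ac regions of BMPER that were called with vehicle only. The H3K27ac value of the whole window sums over both stretches. Stretches were compared without a test.

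At the start of BMPER, SMAD3 within 2 kb covered 0.878 and 1.21 kb with vehicle and 1.52 and 1.72 kb with TGF-beta, in a region called in all libraries. H3K27ac there covered 2.21 and 2.39 kb against 2.23 and 2.25 kb, and the groups overlapped.

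ATOH8 (chromosome 2, 85753991 to 85791383, plus strand) codes for a basic helix-loop-helix factor whose gene responds to BMP ligands in liver and endothelial cells. With vehicle it was among the most acetylated windows: H3K27ac covered 55.4% of it, and over all 4 libraries its share exceeded that of 99.2% of protein-coding genes. H3K27ac covered 30.3 and 33.2 kb with vehicle and 22.9 and 21.6 kb with TGF-beta, and H3K9ac 15.5 and 13.8 kb against 6.77 and 7.92 kb. In both marks the groups lay far apart relative to their spread. H3K27ac fell by 0.59 ± 0.0748 (adjusted p = 0.00205) and H3K9ac by 0.86 ± 0.0764 (adjusted p = 0.000889, limma), and both calls held when any 1 library was left out. The difference between the marks was -0.27 ± 0.102 and did not pass (adjusted p = 0.166).

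At ATOH8 H3K27ac was shorter before, in and past the gene, though not in every region. Before the start H3K27ac went from 2.99 and 3.27 kb to 1.43 and 1.47 kb, in the gene span from 22.0 and 24.7 kb to 16.9 and 15.6 kb, and past its end from 5.36 and 5.31 kb to 4.55 and 4.58 kb. Within 2 kb of the start it went from 3.41 and 3.35 kb to 2.80 and 2.78 kb. Vehicle-only H3K9ac regions numbered 6, 2 of them at 2.8 and 2.2 kb before the start. Among H3K27ac regions, 3 were called with vehicle only and 2, at 33.0 and 36.7 kb, with TGF-beta only, and one at 31.1 kb went from 221 and 214 bp to 416 and 347 bp. SMAD3 covered 1.72 and 2.86 kb with vehicle and 1.45 and 2.19 kb with TGF-beta, so the groups overlapped, and its change of -0.58 ± 0.182 did not pass (adjusted p = 0.0741). Leaving out 1 library gave changes from -0.79 (without TGF-beta replicate 5) to -0.37. Without centring the change was -0.26 and did not pass (adjusted p = 0.497, limma), while in windows of 50 kb it was -0.94 and passed (adjusted p = 0.00566). A SMAD3 region 18.1 kb into the gene (85771959 to 85772248, 280 and 290 bp) was the single one at these 10 genes that was called in both vehicle libraries and in neither TGF-beta library.

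**Figure D4:**
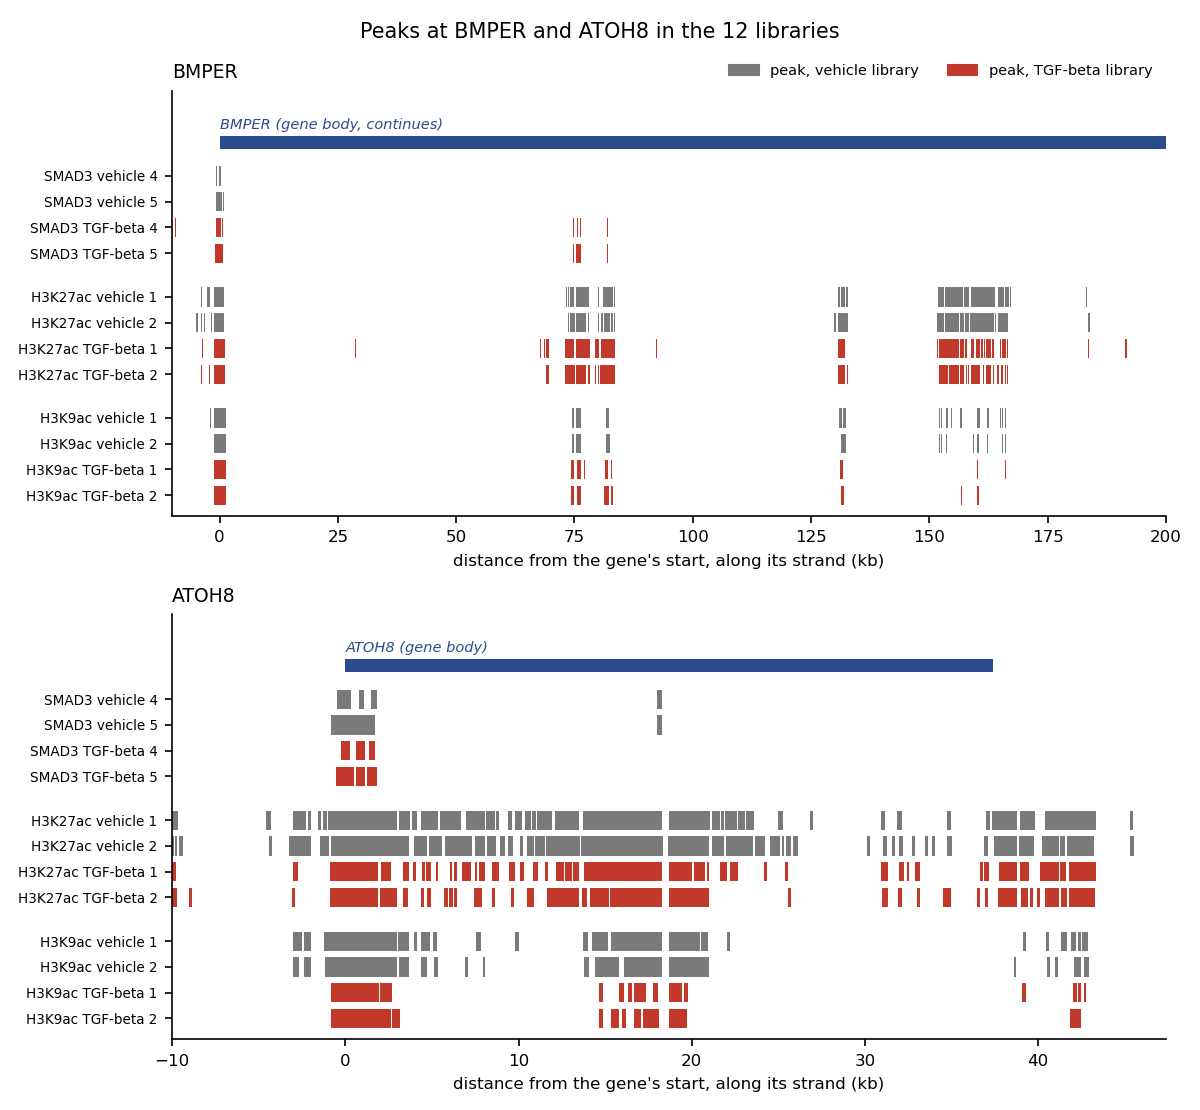
Peaks of all 12 libraries at BMPER (first 200 kb of the gene) and ATOH8, by distance from the gene's start along its strand in kb; rows are libraries, grey for vehicle and red for TGF-beta, and the blue bar is the gene. BMPER shows SMAD3 peaks near 75 to 82 kb with TGF-beta only, and sparser H3K9ac from 152 kb on; ATOH8 shows shorter marks before the gene and over most of it, with H3K27ac regions at 33.0 and 36.7 kb in the TGF-beta libraries only.

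ID1, ID2 and ID3 were covered densely by both marks with or without TGF-beta. Before centring, their SMAD3 length was higher in both TGF-beta libraries than in either vehicle library. The SMAD3 median over covered genes was also higher with TGF-beta, by 0.32 (log2), and relative to it the change at ID1 was 0.05. The share of all genes with such a separation was not counted. H3K27ac covered a larger share of the window at ID1 and ID3 than at nearly all other genes. A lower H3K27ac share was seen in 99.7% of genes than at ID1, 99.7% than at ID3 and 94.9% than at ID2. For H3K9ac these percentages were 97.8% at ID1, 98.5% at ID2 and 99.5% at ID3. None of the 3 genes passed the test in H3K27ac or H3K9ac. In SMAD3, ID2 rose, and ID1 and ID3 did not pass.

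Promoter sequence is shown for these 3 genes and for BMPER, because their SMAD3 length was higher in both TGF-beta libraries than in either vehicle library and a SMAD3 region called in all 4 libraries reached into the 250 bases before each start. It comes from RefSeq (GRCh38.p14), which gives promoters for 8 of the 10 genes. Each is written 5′ to 3′ on the gene's strand. Capitals mark GTCT or its reverse complement AGAC, the core of the element that SMAD3 and SMAD4 bind, and GGCGCC, a GC-rich motif that SMADs can also bind; both strands were searched and these motifs do not overlap.
ID1 promoter (plus strand, chr20:31605039-31605288): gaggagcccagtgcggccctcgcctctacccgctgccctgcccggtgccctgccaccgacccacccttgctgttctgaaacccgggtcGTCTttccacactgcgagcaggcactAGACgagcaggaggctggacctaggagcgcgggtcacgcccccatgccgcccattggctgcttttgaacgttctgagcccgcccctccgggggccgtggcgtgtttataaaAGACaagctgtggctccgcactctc
ID2 promoter (plus strand, chr2:8681806-8682055): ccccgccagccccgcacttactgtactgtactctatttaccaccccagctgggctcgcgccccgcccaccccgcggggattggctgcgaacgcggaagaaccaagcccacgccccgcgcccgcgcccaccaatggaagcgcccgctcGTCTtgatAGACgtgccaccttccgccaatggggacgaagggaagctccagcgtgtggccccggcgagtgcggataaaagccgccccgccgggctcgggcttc
ID3 promoter (minus strand, chr1:23559502-23559751): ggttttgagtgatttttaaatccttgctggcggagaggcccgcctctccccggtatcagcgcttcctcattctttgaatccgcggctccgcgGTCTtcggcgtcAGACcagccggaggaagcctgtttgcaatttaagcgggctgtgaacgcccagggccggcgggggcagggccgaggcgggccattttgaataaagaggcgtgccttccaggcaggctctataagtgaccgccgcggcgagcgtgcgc
BMPER promoter (plus strand, chr7:33904665-33904914): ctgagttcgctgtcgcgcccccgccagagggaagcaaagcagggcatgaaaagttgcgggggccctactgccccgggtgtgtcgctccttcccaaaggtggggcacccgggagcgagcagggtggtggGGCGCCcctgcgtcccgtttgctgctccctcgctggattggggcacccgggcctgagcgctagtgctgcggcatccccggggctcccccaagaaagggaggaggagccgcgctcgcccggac
GTCT or AGAC occurs 3 times in the ID1 window, 2 times each in those of ID2 and ID3, and not in that of BMPER, which holds GGCGCC 1 time. A further BMPER window in the table, before a start inside the gene span (33905289 to 33905538, not printed), holds GTCT or AGAC 2 times and GGCGCC 2 times, and SMAD3 covered 20 and 51 of its bases with vehicle and 194 and 250 with TGF-beta. Of 35116 promoter windows of this length, 77.5% hold GTCT or AGAC and 16.4% hold GGCGCC, so these matches are common and are given as a description. SMAD3 peaks covered all 250 bases at ID1 and ID3 in every library, whereas H3K27ac covered 72 to 121 bases there and H3K9ac 47 to 101. At ID2 the SMAD3 peaks covered 96 and 121 bases with vehicle and 103 and 127 bases with TGF-beta, and neither mark covered any. At BMPER both marks covered the whole window, and SMAD3 215 and 250 bases with vehicle and 250 in both TGF-beta libraries.

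ID1 (chromosome 20, 31605289 to 31606510, plus strand) is a classic immediate target of BMP signalling. SMAD3 covered 3.20 and 3.61 kb with vehicle and 4.68 and 4.39 kb with TGF-beta, and the groups did not overlap. Relative to the median shift the change was 0.05 ± 0.122 (adjusted p = 0.820, limma); without centring it was 0.37 and did not pass either (adjusted p = 0.114). Within 2 kb of the start SMAD3 went from 2.03 and 2.29 kb to 3.11 and 2.70 kb. The strongest SMAD3 peak scored above 96.5% to 98.8% of the peaks of its library. H3K27ac covered 11.7 and 12.3 kb against 11.6 and 11.8 kb and H3K9ac 6.92 and 6.05 kb against 6.17 and 6.38 kb, with overlapping groups in both (changes -0.12 ± 0.0743 and 0.05 ± 0.0773, adjusted p = 0.277 and 0.753).

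ID2 (chromosome 2, 8682056 to 8684461, plus strand) had SMAD3 peaks over 1.02 and 1.26 kb with vehicle and 2.63 and 2.58 kb with TGF-beta. The TGF-beta libraries lay well above the vehicle libraries, and SMAD3 rose by 0.61 ± 0.118 (adjusted p = 0.0113, limma). The call was lost without vehicle replicate 4 (adjusted p = 0.0608) and when every library was cut to an equal number of peaks (0.38, adjusted p = 0.156). The gain came from several places. A region centred 3.3 kb before the start went from 543 and 843 bp to 1292 and 1238 bp. The region across the start went from 475 and 412 bp to 715 and 738 bp. In the promoter bases shown above its groups overlapped, while SMAD3 in the gene span went from 0.379 and 0.291 kb to 0.612 and 0.611 kb. A further 2 regions, of 189 and 287 bp, 451 and 728 bp past the gene's end, were called with TGF-beta only. H3K27ac covered 5.25 and 5.52 kb with vehicle and 6.30 and 6.12 kb with TGF-beta, without overlap, but its change of 0.10 ± 0.0719 did not pass (adjusted p = 0.351). H3K9ac covered 8.44 and 6.80 kb against 6.89 and 7.52 kb, with overlap (change 0.02 ± 0.0865, adjusted p = 0.910).

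ID3 (chromosome 1, 23557926 to 23559501, minus strand) had the longest SMAD3 coverage of the 10 genes with TGF-beta, at 6.11 and 6.18 kb, against 3.17 and 4.28 kb with vehicle. The groups did not overlap, yet the change of 0.34 ± 0.124 did not pass (adjusted p = 0.108, limma). In windows of 2.5 kb it was 0.67 and passed (adjusted p = 0.0316), and without centring it was 0.67 (adjusted p = 0.0549). All 5 SMAD3 regions that were called in every library were longer in both TGF-beta libraries than in either vehicle library. These lengths are not centred, and the SMAD3 median over covered genes was also higher with TGF-beta, by 0.32 (log2). The share of regions over the genome that did the same was not counted, so no result particular to ID3 is read from this. In the region just past the gene's end the length went from 488 and 1073 bp to 2234 and 2125 bp, and in the region over the start from 947 and 1249 bp to 1767 and 1725 bp. H3K27ac covered 10.8 and 11.0 kb with vehicle and 12.6 and 13.2 kb with TGF-beta, with no overlap (change 0.14 ± 0.0782, adjusted p = 0.233). H3K9ac covered 9.33 and 8.35 kb against 9.33 and 9.61 kb (change 0.19 ± 0.0761, adjusted p = 0.192).

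ID4 (chromosome 6, 19837370 to 19842197, plus strand) stood apart from the other ID genes. No SMAD3 or H3K27ac peak lay in its window in any library. H3K9ac peaks covered 0.219 kb in vehicle replicate 2 and 0.168 kb in TGF-beta replicate 2, and none were called in replicate 1 of either treatment. These peaks were weak, scoring above 2.99% and 16.6% of their library's peaks, and the gene was under the minimum length in every target.

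**Figure D5:**
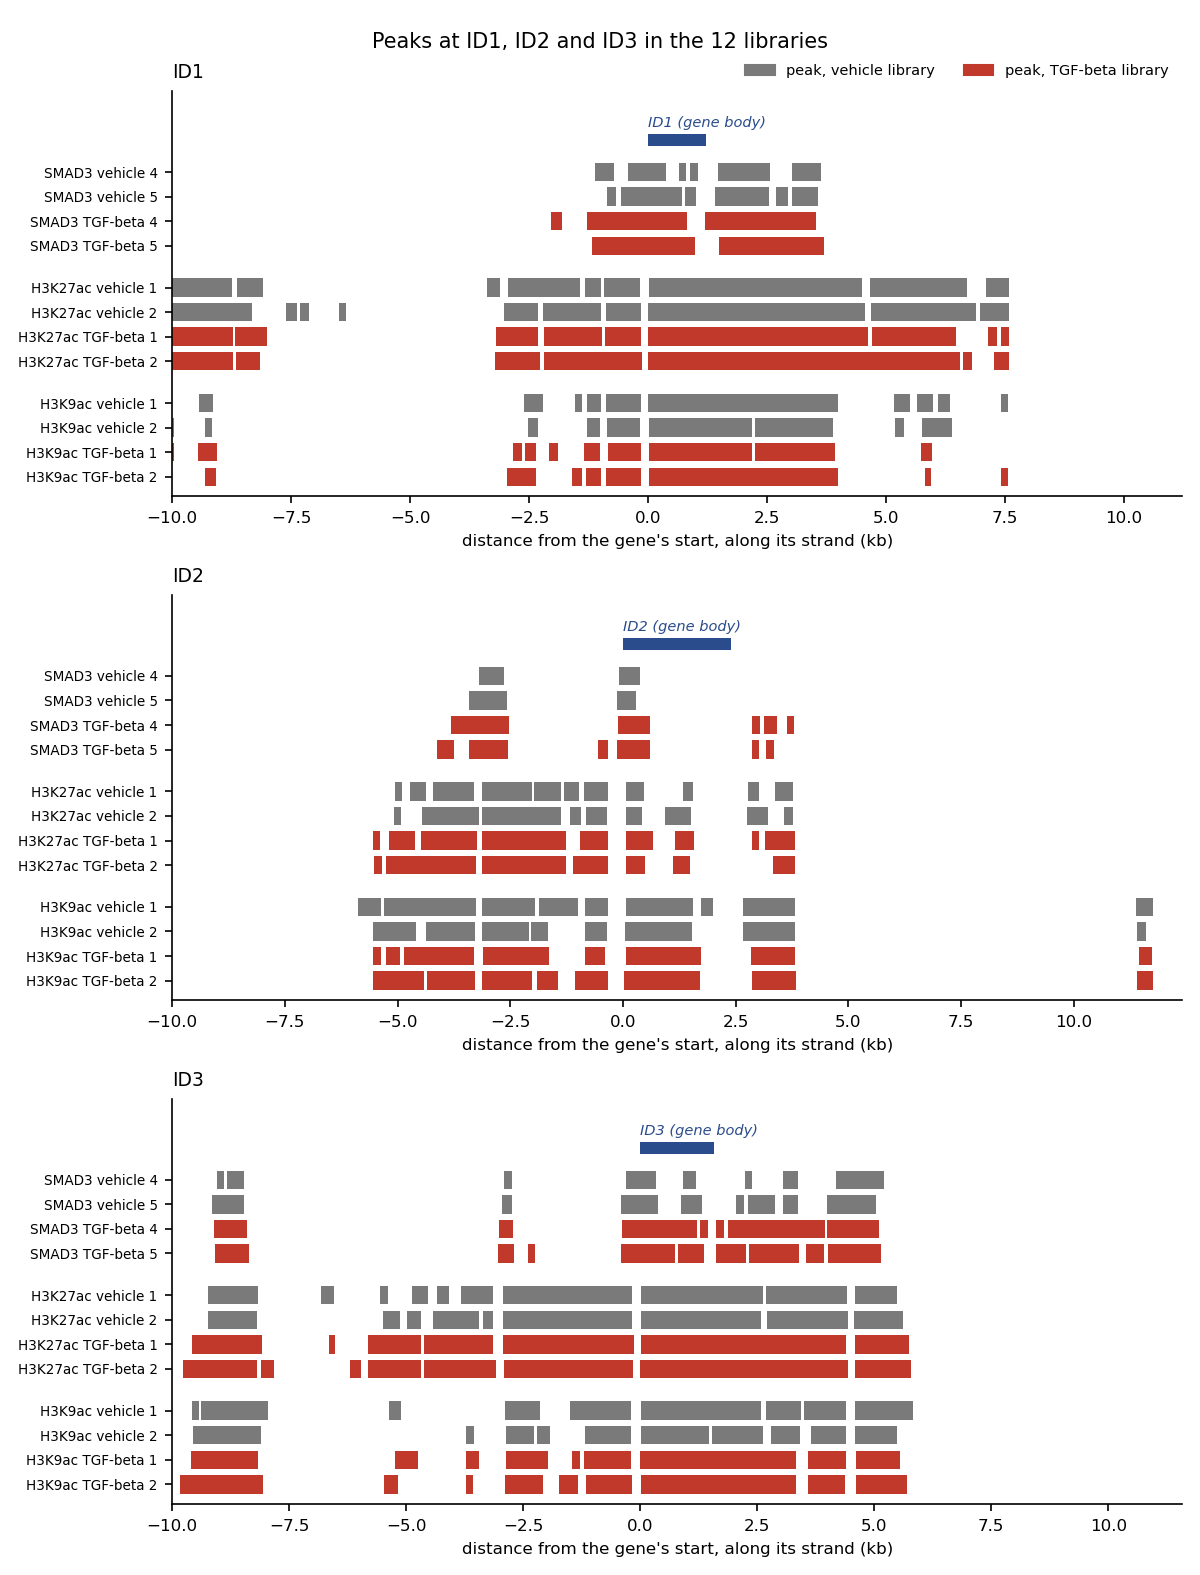
Peaks of all 12 libraries at ID1, ID2 and ID3, by distance from each gene's start along its strand in kb; rows are libraries, grey for vehicle and red for TGF-beta, and the blue bar is the gene. Both marks cover much the same stretches in both treatments, while SMAD3 peaks are longer with TGF-beta at ID3 and ID2 and appear past the end of ID2.

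Merged over the 4 libraries of a target, the 10 windows held 36 SMAD3, 102 H3K27ac and 86 H3K9ac regions. Of the SMAD3 regions, 15 were called in all 4 libraries, 8 with TGF-beta only (in both of its libraries and in none of the vehicle ones), and 1 with vehicle only; genome-wide these classes held 41.7%, 13.7% and 0.669% of 38390 regions. The 8 gained SMAD3 regions lay at BMPER (5), ID2 (2) and NOG (1); with an equal number of peaks per library 2 were gained. All 8 overlapped a region of H3K27ac and one of H3K9ac, as did all 15 regions called in every library. Over the genome 71.9% of gained SMAD3 regions overlapped each mark, and of those called in every library 96.4% overlapped H3K27ac and 97.1% H3K9ac. In H3K27ac 52 regions were called in all libraries, 5 with TGF-beta only and 3 with vehicle only (41.9%, 12% and 4.72% of all regions). H3K9ac had 36, 4 and 13 (49.8%, 5.15% and 6.15%), and the 13 lay at ATOH8 (6), BMPER (5), BMP4 (1) and ID1 (1). Regions of the same gene share a locus and are not independent, so these counts carry no test.

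The wider BMP pathway was read from a list of 62 other ligands, antagonists, receptors, SMADs, SMAD regulators and targets. In SMAD3, 8 of 31 genes tested rose and none fell at an adjusted p under 0.05 (11.2% and 1.68% of all genes). The 8 include genes, DLX2 and KCP among them, whose vehicle length was on average under the minimum, so that they were tested only through the TGF-beta libraries. The 6 with the largest change are named in each direction. They were led by DLX2, a homeobox gene induced by BMPs, at 0.155 and 0.247 kb with vehicle and 2.32 and 3.09 kb with TGF-beta (change 1.87 ± 0.140, adjusted p = 0.00014, limma). SMAD7, the inhibitory SMAD of both pathways, went from 1.63 and 2.26 kb to 9.96 and 7.54 kb (change 1.60). ENG, which codes for the co-receptor endoglin, went from 1.23 and 1.31 kb to 4.95 and 4.77 kb (change 1.28). SKIL, a SMAD corepressor (1.04), FSTL3, an activin-binding protein (0.94), and KCP, a BMP-binding protein (0.92), also rose. The KCP call was lost without vehicle replicate 4 and under 3 other settings (adjusted p from 0.0957 to 0.534).

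In H3K27ac, 7 of 33 pathway genes tested rose and 4 fell (14.8% and 11.7% of all genes). DLX2 went from 0.164 and 0 kb to 2.10 and 2.30 kb (change 2.14 ± 0.157, adjusted p = 0.000275, limma). In both targets DLX2 passed the minimum length only through the TGF-beta libraries, and its size depends on the settings: in H3K27ac it was 3.72 with a pseudocount of 100 bp, 0.95 with 2000 bp and 1.31 in windows of 2.5 kb, and in SMAD3 2.81, 0.92 and 1.08. BMPR1B in H3K27ac and KCP in SMAD3 also had vehicle levels under that minimum on average, and with 100 and 2000 bp their changes were 1.75 and 0.53, and 1.52 and 0.39. The BMP receptor BMPR1B went from 0.312 and 0.423 kb to 1.70 and 1.46 kb (change 1.17), and ENG from 2.32 and 2.70 kb to 6.28 and 5.92 kb (change 1.05). The antagonist gene DAND5 (1.07), the SMAD corepressor SKI (0.60) and the ubiquitin ligase SMURF1 (0.52) also rose. Those that fell were TWSG1, a chordin partner (-0.57), SMAD1, a transducer of BMP receptors (-0.47), GATA3 (-0.41) and the ligand GDF5 (-0.35). GATA3 did not pass with peaks scoring at least 5 (adjusted p = 0.0532), nor GDF5 without centring (adjusted p = 0.0658). In H3K9ac, 6 of 44 rose and 1 fell (4.25% and 5.22% of all genes): BMPR1B (0.61), CHRDL2 (0.52), GDF6 (0.50), SMAD7 (0.47), BMP6 (0.40) and ENG (0.34) rose and CRIM1 fell by 0.37. BMPR1B had 0.458 and 0.253 kb of H3K9ac with vehicle and 0.706 and 0.735 kb with TGF-beta. It passed the minimum length in H3K9ac only through the TGF-beta libraries, and with 100 and 2000 bp its change was 0.99 and 0.27. No H3K9ac call on this list passed without centring (adjusted p 0.0688 for CHRDL2 to 0.254 for ENG). ENG lost its H3K27ac and H3K9ac calls in windows of 50 kb (adjusted p = 0.798 and 0.543), and in that setting DAND5 lost its H3K27ac call (adjusted p = 0.0646). Leaving out 1 library ended the H3K27ac calls of GDF5 (TGF-beta replicate 1 or 2, up to 0.0832) and SMAD1 (TGF-beta replicate 1, 0.071) and the H3K9ac calls of BMP6 (vehicle or TGF-beta replicate 1), GDF6 (TGF-beta replicate 2), CRIM1 (vehicle replicate 2 or TGF-beta replicate 1) and ENG (vehicle replicate 1 or either TGF-beta library).

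For the 7 genes that passed in at least 1 target, the genes with the most similar pattern over the 12 libraries were sought among 12312 genes (12311 for BMP4), after the mean of each target was subtracted. The libraries share treatment and target, so Pearson's r is a description. NOG was most like CORO2B (r = 0.994) and TMEM44 (0.993). ATOH8 was most like DENND2A (0.980) and KANSL1L (0.973), and BMP4 like GPHN (0.986) and ALDOC (0.983). BMPER was most like SQOR (0.989) and SPIB (0.981), whose SMAD3 changes were 0.50 and 1.18 and H3K9ac changes -0.19 and -0.34, and ID2 like B4GALT7 (0.991) and STX1A (0.981). Likeness was lower for BMP2, with PRSS23 (0.947) and MT2A (0.938), and for GREM1, with EXPH5 (0.938) and EIF2AK1 (0.931).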

How the data were processed

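Peaks of SMAD3, H3K27ac and H3K9ac ChIP-seq were read from 12 files, one per library; 4 input samples were not used. The submitters' processing notes name BWA, Picard, MACS2 and bedtools, and hg38 as build, without versions; cutoffs and the control are not stated. The deposited score column holds −log10 of the peak caller's p or q value, which of them is not stated, and the authors' scores served only to rank or filter peaks within a library. No read counts were available to this work, so depth is unknown and limits the length called.

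Genes were RefSeq protein-coding genes of GRCh38 (names matched for all 10), without exons; strand came from the RefSeq promoter table. Length inside peaks per window was tested on a log2 scale after adding 500 bp (minimum mean 500 bp) with limma 3.58.1 in R 4.3.3, on the 4 libraries of a target, or 8 for the difference between the marks. For 1 gene, 2 libraries against 2 allow an exact permutation p no smaller than 0.333. Peaks overlapping by at least 1 bp were merged into regions. Other steps used Python 3.11.15. The count of length inside peaks and the limma fit within a target were tested on simulated data.

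Members, lists and settings were chosen with earlier results of these data known. All 10 members are named in every target, with up to 6 called genes per direction and target from the pathway list, overlapping neighbours, and the 2 most similar genes. Alternatives were other pseudocounts, windows, filters, peak sets, no centring, trend and robust options, the replicate number as a block, and leaving out each library.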

Additional observations from a re-analysis of the deposited data

Results flagged for a closer look

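At NOG the change with TGF-beta differed between the marks by a test of the difference itself: the H3K9ac change minus the H3K27ac change was -0.83 (log2, ± 0.121 SE, adjusted p = 0.00404, limma, 4 libraries per mark). Every TGF-beta library lay above every vehicle library in both marks, so that both rose, by different amounts on the log2 scale. H3K27ac went from a mean of 0.223 to 1.76 kb and H3K9ac from 1.71 to 2.93 kb. In H3K27ac NOG passed the minimum length only through the TGF-beta libraries, since its vehicle values were 0.260 and 0.186 kb. The size of the difference therefore depends on the pseudocount, and with 100 bp it was -1.59. The difference passed when any 1 library was left out (adjusted p 0.00245 to 0.0223), and with a pseudocount of 2000 bp it was -0.22 and did not pass (adjusted p = 0.104). Groups of 2 libraries are too small for a test of single outlying samples.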

How the results depend on the processing

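Of 509 values of the 10 genes under other settings, 440 kept direction and side of the threshold, 42 lost a call, 13 gained one and 14 changed sign. NOG in every target, BMPER in SMAD3, BMP4 in H3K27ac and ATOH8 in both marks kept their calls under every setting in which they were tested. SMAD3 at BMP4 lost its call in 11 of 14 settings, H3K27ac at BMP2 in 7 of 14, H3K9ac at BMP4 in 10 of 15 and at BMPER in 9 of 15. Signs changed only at values that did not pass: with windows of 2.5 kb, H3K27ac was -0.022 at ID2 and -0.043 at ID3 and the marks differed by 0.039 at ID2; with windows of 50 kb, H3K9ac was -0.055 at ID1 and the marks differed by -0.095 at ID3; without centring, H3K9ac was -0.041 at ID1 and -0.0699 at ID2 and SMAD3 was 0.083 at GREM1; peaks scoring at least 5 gave H3K9ac of -0.0074 at ID1, and a pseudocount of 100 bp gave SMAD3 of -0.0069 at ID1. Leaving out 1 library gave SMAD3 of -0.015 (without TGF-beta replicate 4) to 0.10 at ID1, H3K9ac of -0.0701 (without vehicle replicate 2) to 0.12 at ID2, and differences between the marks of -0.17 to 0.014 (without H3K9ac vehicle replicate 1) at ID2 and of -0.0016 (without H3K27ac TGF-beta replicate 1) to 0.096 at ID3. Genes called over the genome numbered 3021 in SMAD3, 6019 in H3K27ac, 2316 in H3K9ac and 1649 between the marks in windows of 50 kb (1605, 3698, 1383 and 1027 as reported), 706 in SMAD3 with an equal number of peaks per library, and 557 in H3K9ac without centring. Of the 10 genes, 2 were called in H3K9ac with a pseudocount of 100 bp, no filter, windows of 2.5 kb, no centring, scores of at least 5 or crossed replicate numbers, and between the marks 0 with a pseudocount of 2000 bp and 3 with windows of 50 kb. At these genes, gained SMAD3 regions numbered 5 when merged up to 200 bp apart or with scores of at least 5 and 2 with an equal number of peaks, and lost ones 2 with an equal number, when at least 50% of a region had to be covered or with windows of 50 kb. Gained H3K27ac regions numbered 1 (merged), 9 (50% covered), 3 (equal number, or scores of at least 5) and 17 (50 kb) and lost ones 8 (50% covered) and 9 (50 kb); H3K9ac gained 2 (50% covered) and 8 (50 kb) and lost 22 (50 kb). Leaving out 1 library, which leaves an arm of 1 assumed to vary like the others, gave 789 (without vehicle replicate 4) to 1814 genes in SMAD3, 2383 (without TGF-beta replicate 2) to 3230 in H3K27ac, 899 (without TGF-beta replicate 1) to 1546 in H3K9ac and 511 (without H3K9ac TGF-beta replicate 1) to 973 between the marks. Of the 10 genes it left 2 to 3 called in SMAD3, 3 to 5 in H3K27ac and 2 to 3 in H3K9ac, and 1 between the marks. Gained regions then numbered 8 to 15, 5 to 15 and 5 to 7 in SMAD3, H3K27ac and H3K9ac, and lost ones 1 to 3, 4 to 23 and 14 to 28. The cause of these changes was not tested, except that NOG and BMP2 fell under the minimum length in SMAD3 without either TGF-beta library. Same-numbered libraries share only a number (correlation of deviations -0.07 in SMAD3, -0.02 in H3K27ac and -0.14 in H3K9ac). With the replicate number as a block 1671, 3666 and 1706 genes were called in the 3 targets and 938 between the marks, BMP2 lost its H3K27ac call (adjusted p = 0.0518, limma) and ATOH8 gained a SMAD3 call (adjusted p = 0.019); crossing the numbers in H3K9ac, chosen after seeing the data, called 1360. Depth is unknown, so a region not called is not shown to be absent.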
